A study of Mus musculus with 16 samples.

Results

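Vim, Fn1, Cd44, S100a4, S100a6, Anxa1, Anxa2, Lgals1 and Cav1 are genes of the cytoskeleton, cell surface and extracellular matrix that are widely used as markers of mesenchymal cells. They were chosen by name, as the rows of these 9 symbols among the 27128 genes of the deposited tables. Earlier results of these data were known when they were chosen. All 9 had a mean of at least 1 CPM (read counts after scaling for library size), as did 14301 genes in all.

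The libraries were made from cultured mouse germline stem cells (GSCs), the cultured counterpart of the stem cells that maintain sperm production. All of them came from B6;CBA-Tg(Pou5f1-EGFP)2Mnn/J mice at postnatal day 5.5, which carry a green fluorescent protein (GFP) reporter of Pou5f1, also called Oct4. Germ cells that were positive for Oct4-GFP and negative for KIT were sorted and grown in StemPro-34 medium. It was supplemented with the growth factors GDNF, bFGF and EGF. The cells grew on a feeder layer of mouse embryonic fibroblasts (MEF) or, without feeders, on the basement membrane extract Matrigel. Every group had 1 library, so differences between groups could not be set against replicates and were not tested. The labels do not say whether animals were pooled or how many cultures each library holds.

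The libraries fall into 4 experiments. The feeder-removal series had cells on MEF (day 0) and cells 4 and 9 days after their transfer to Matrigel. The density experiment compared cultures on Matrigel spread at 0.1 µg/cm2, called epithelial-like, and at 10 µg/cm2, called mesenchymal-like. The sorted set held GFP-low, GFP-mid and GFP-high cells sorted from cultures on Matrigel at 10 µg/cm2. The inhibitor series had cells on MEF given the solvent DMSO or UNC0638, an inhibitor of the histone methyltransferase G9a, at 0.5, 1 or 2 µM, with 48 hours of treatment.

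Vimentin builds the intermediate filaments of mesenchymal cells, and fibronectin is a matrix protein that cells bind through integrins. CD44 is the main receptor for hyaluronan. S100 proteins and annexins bind calcium, and annexins also bind membrane lipids; galectin-1 binds sugar chains on surface proteins, and caveolin-1 coats the membrane pits called caveolae. As a group these genes are typical of fibroblasts and of cells that have passed through an epithelial-to-mesenchymal transition, in which cell-cell contacts are lost and motility is gained.

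Library totals ran from 4335185 to 12019651 expected counts. In all 12 libraries the 12 germ cell markers were above 3 counts each, and their summed level was 3221 to 4940 CPM. The 10 fibroblast markers summed to 59.3 to 4362 CPM, and Fap, a fibroblast surface protease, had no count in any library but that with 1 µM UNC0638, where it had 1 count. The 10 myeloid markers summed to 10.0 to 44.2 CPM outside the sorted fractions and to 212 to 1797 CPM in them. Sertoli cell markers (7 matched) summed to 4.76 to 27.9 CPM, endothelial markers (6) to 11.8 to 19.1 CPM, and the 8 Leydig and peritubular markers to 8.40 to 196 CPM. Cyp17a1, Insl3 and Hsd3b1, which define Leydig cells, were at 0 in all libraries.

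The start regions of the genes are shown for the 4 members that share a TATA box, the letters TATAAA on the gene's own strand, because this was the searched motif found in the most members. Cd44, S100a6 and Cav1, whose promoters lacked these letters, were higher in the density comparison as well. RefSeq promoters of build GRCm38.p6, from 250 bases before to 50 bases after a start site, were found for 7 of the 9 members (not for Fn1 and Lgals1). Only the 250 bases before the start were searched for motifs. Cav1 had 2 listed starts, so there were 8 promoters. The TATA letters were in 4 of the 8, against 7.59% of 32851 promoters. The 100 bases before the start of Vim (chr2:13574211-13574310, plus strand), S100a4 (chr3:90603670-90603769, plus) and Anxa1 (chr19:20390672-20390771, minus) and the 120 bases before that of Anxa2 (chr9:69453563-69453682, plus) are given 5′ to 3′, with the TATA box and, in Anxa2, the AP-1 letters in capitals.
Vim: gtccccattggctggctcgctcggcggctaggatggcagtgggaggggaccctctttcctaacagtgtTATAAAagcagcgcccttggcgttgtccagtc
S100a4: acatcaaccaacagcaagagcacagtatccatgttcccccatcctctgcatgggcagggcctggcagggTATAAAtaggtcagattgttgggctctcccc
Anxa1: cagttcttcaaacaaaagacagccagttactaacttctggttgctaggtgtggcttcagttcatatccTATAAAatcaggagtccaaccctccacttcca
Anxa2: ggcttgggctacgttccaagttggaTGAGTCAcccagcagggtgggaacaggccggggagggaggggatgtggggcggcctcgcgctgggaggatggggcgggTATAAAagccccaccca
The box lay 32 to 27 bases before the start in Vim and Anxa1, 31 to 26 in S100a4 and 17 to 12 in Anxa2. The AP-1 letters TGANTCA, searched on both strands, were in 1 of the 8 promoters, that of Anxa2 (95 to 89 bases before the start), and in 6.75% of all promoters. The E-box CACCTG, read by the ZEB and SNAIL repressors of epithelial genes, was in 1 of the 8, a promoter of Cav1, against 17.2% of promoters, both strands searched. The letters CCAAT (Vim, S100a6) and GGGCGG (Anxa2, Cav1), searched on both strands, were in 2 of the 8 each, against 33.8% and 32.7%, and the CArG box was in none, against 1.47%. These are matches of letters in a fixed window and not measured binding sites.

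Each member's level was highest in the mesenchymal-like library. The next highest was the DMSO library for 8 members, and the lowest of the 12 was the GFP-mid library for 7.

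**Figure D1:**
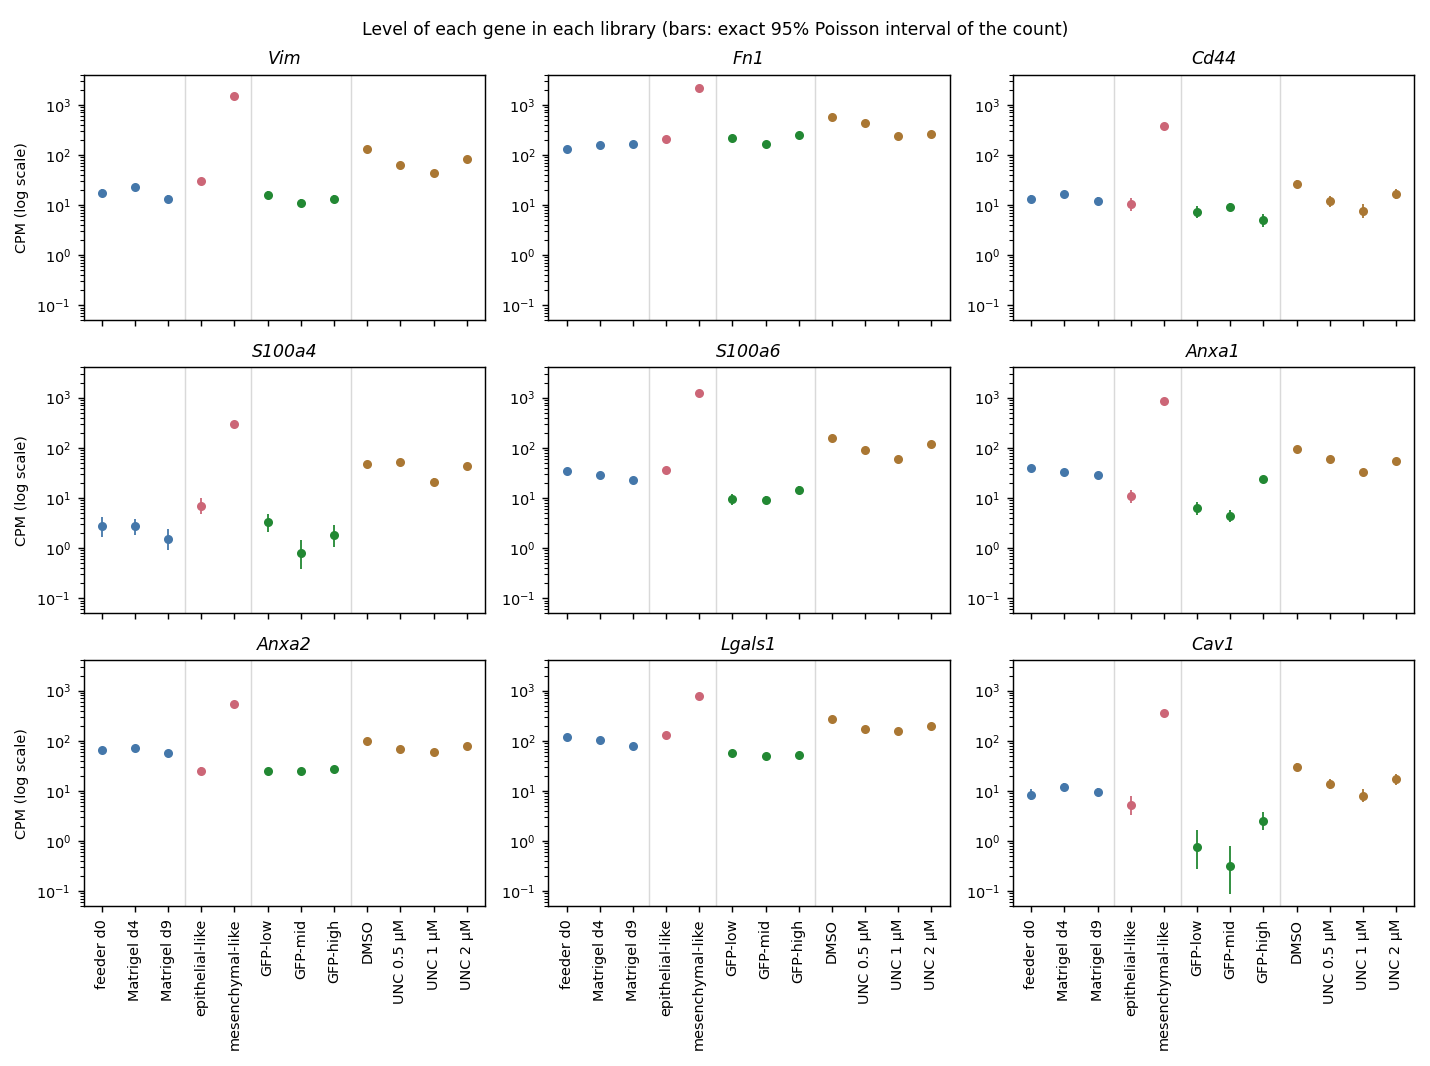
Level of each of the 9 genes (CPM, log axis) in each of the 12 libraries, coloured by experiment; bars are exact 95% Poisson intervals of the count, which cover counting error only. In every panel the highest point is the mesenchymal-like library, from 301 CPM for S100a4 to 2186 CPM for Fn1.

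Vim (chromosome 2, 13574311 to 13582826 in GRCm38.p6) encodes vimentin. Its level was 17.6, 22.7 and 13.4 CPM at days 0, 4 and 9, and 29.6 and 1478 CPM in the epithelial-like and mesenchymal-like cultures. It was 15.9, 11.1 and 13.5 CPM in GFP-low, GFP-mid and GFP-high cells, and 134, 63.2, 42.6 and 82.5 CPM with DMSO and 0.5, 1 and 2 µM UNC0638. The mesenchymal-like library stood 11.1-fold above the next one, DMSO (95% interval of the read split 10.2 to 11.99). Among the 5 lowest libraries, from day 0 down to GFP-mid, each pair of neighbours in the order lay within counting error. In counts, the extremes were 126 in the epithelial-like library, which had one of the smaller totals, and 6122 in the mesenchymal-like one.

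Fn1 (chromosome 1, 71585473 to 71653280), fibronectin, had the highest CPM of the 9 in every library. Its level was 134, 160 and 161 CPM through the feeder-removal series and 211 and 2186 CPM in the epithelial-like and mesenchymal-like cultures. The sorted fractions had 213, 168 and 248 CPM from GFP-low to GFP-high, and the inhibitor series 582, 425, 242 and 257 CPM. Its smallest expected count was 899. The mesenchymal-like level was 3.75 times that with DMSO (3.60 to 3.92), and Fn1 was lowest at day 0.

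Cd44 (chromosome 2, 102811141 to 102901669), the hyaluronan receptor, had 13.4, 16.7 and 12.1 CPM in the feeder-removal series and 10.3 and 374 CPM in the density experiment. From GFP-low to GFP-high it had 7.27, 9.34 and 4.99 CPM, and with DMSO and rising UNC0638 26.6, 11.9, 7.68 and 16.5 CPM. Apart from the mesenchymal-like library, which stood 14.1-fold above DMSO, the order of its libraries was poorly resolved: 9 of the 11 neighbouring pairs lay within counting error. It was the only member with several transcripts in the tables (3), and its average transcript length, weighted by abundance, was 4409 bases in 6 libraries. That length was greatest in GFP-high cells at 4691 bases, from 47 counts, and among libraries with at least 50 counts it was greatest in GFP-mid cells at 4496 bases.

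S100a4 (chromosome 3, 90603770 to 90606045), a calcium-binding protein linked to motility and also called fibroblast-specific protein, was at 2.72, 2.71 and 1.55 CPM in the feeder-removal series. It had 7.04 and 301 CPM in the epithelial-like and mesenchymal-like cultures. The sorted fractions had 3.26, 0.792 and 1.80 CPM from 26, 10 and 17 counts. With DMSO and 0.5, 1 and 2 µM UNC0638 it had 46.7, 51.99, 21.3 and 43.98 CPM. In the feeder-removal and sorted libraries it rested on 10 to 32 counts. The detection limit of 3 counts was worth 0.238 to 0.389 CPM in these libraries. S100a4 was the one member whose second highest library was not DMSO but 0.5 µM UNC0638.

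S100a6 (chromosome 3, 90612894 to 90614414), another calcium-binding S100 protein, lies 6848 bases downstream of S100a4 and was more abundant throughout. It was at 34.7, 29.0 and 22.4 CPM at days 0, 4 and 9, and at 35.7 and 1213 CPM in the density experiment. GFP-low, GFP-mid and GFP-high cells had 9.40, 9.11 and 14.5 CPM, and the inhibitor series had 159, 90.9, 60.9 and 117 CPM. Its order was the best resolved of the 9, with 2 of 11 neighbouring pairs within counting error.

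Anxa1 (chromosome 19, 20373434 to 20390671), annexin A1, which mediates part of the anti-inflammatory action of glucocorticoids, was at 39.7, 32.8 and 29.2 CPM in the feeder-removal series. Its level was 11.03 and 850.4 CPM in the epithelial-like and mesenchymal-like cultures. In sorted cells it was 6.27, 4.43 and 24.2 CPM, so GFP-high cells stood apart from the other fractions. The inhibitor series had 95.6, 59.3, 33.2 and 54.1 CPM.

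Anxa2 (chromosome 9, 69453683 to 69491792), annexin A2, which pairs with S100A10 at the plasma membrane, had 65.1, 70.1 and 56.3 CPM at days 0, 4 and 9. It had 25.1 and 541 CPM in the density experiment and 25.5, 24.4 and 27.9 CPM across the GFP fractions, whose pairwise counting intervals all included a ratio of 1. With DMSO and rising UNC0638 it was at 97.4, 67.6, 58.8 and 76.97 CPM. Apart from the mesenchymal-like library, its levels thus fell into a lower set, the epithelial-like and sorted libraries at 24.4 to 27.9 CPM, and a higher one at 56.3 CPM or more.

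Lgals1 (chromosome 15, 78926725 to 78930465), galectin-1, had 120.05, 105.5 and 79.7 CPM in the feeder-removal series and 128.6 and 794 CPM in the epithelial-like and mesenchymal-like cultures. The GFP fractions had 57.4, 50.8 and 50.95 CPM and the inhibitor series 270.1, 174, 157 and 197 CPM. Its mesenchymal-like level was 2.94 times that with DMSO, the smallest such gap among the members.

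Cav1 (chromosome 6, 17306335 to 17341328), caveolin-1, had 8.43, 12.1 and 9.44 CPM at days 0, 4 and 9, and 5.16 and 360.2 CPM in the density experiment. In GFP-low, GFP-mid and GFP-high cells it had 0.752, 0.317 and 2.55 CPM, from 6, 4 and 24 counts, and the GFP-mid value was the lowest of any member in any library. The inhibitor series had 30.3, 13.7, 8.03 and 16.95 CPM.

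Read counts favour long transcripts, so the members were compared with each other in deposited TPM, which is scaled per length. Lgals1 had the highest TPM of the 9 in 11 libraries, from 133.7 TPM in GFP-mid cells to 673 TPM with DMSO. In the mesenchymal-like library it had 1731 TPM and S100a6 was above it at 3023 TPM. S100a4 moved from 28.8 TPM in the epithelial-like culture, the fifth of the 9, to 1239 TPM, the third. Fn1, first by reads, had 378 TPM there, and Cd44 (123 TPM) and Cav1 (218 TPM) were lowest. The 9 genes together took 599, 567 and 474 TPM at days 0, 4 and 9, 513 and 9334 TPM in the density experiment, 288, 252 and 348 TPM in the GFP fractions, and 1850, 1251, 861 and 1300 TPM in the inhibitor series.

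The density experiment set the mesenchymal-like culture against the epithelial-like one, and a gene was called changed where log2(CPM + 1) differed by at least 1, a 2-fold change. All 9 genes were higher in the mesenchymal-like culture, with a median log2 ratio of 5.05, where 10.7% of the 14301 genes were called higher and the median of all genes was −0.06. Anxa1 was 77.1 times higher (95% interval of the read split 57.8 to 105), Cav1 69.8 times (45.9 to 112) and Vim 49.98 times (41.9 to 60.1). S100a4 followed at 42.7 times (29.8 to 63.5), Cd44 at 36.2 (26.8 to 50.1), S100a6 at 33.99 (28.9 to 40.2) and Anxa2 at 21.5 (17.7 to 26.4). The genes that were already abundant in the epithelial-like culture had the smallest ratios, with Fn1 10.4 times (9.67 to 11.1) and Lgals1 6.17 times (5.64 to 6.77) higher. In this bulk RNA, more cells that express a gene and more RNA per cell cannot be told apart.

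Fibroblast genes were higher in the same library. The fibroblast markers summed to 158 CPM in the epithelial-like and 4362 CPM in the mesenchymal-like culture, and 8 of the 9 tested were at least 2-fold higher, with a median log2 ratio of 4.81. Type I collagen, Col1a1, went from 84.0 to 2377 CPM, while Pdgfra, a receptor of fibroblast precursors, had 30.7 and 33.6 CPM. Of the Leydig and peritubular markers 3 passed the filter, and 1 was called higher, Acta2, smooth muscle actin, at 2.11 and 189 CPM from 9 and 781 counts. The other two, Star (7.04 and 4.83 CPM) and Myh11 (0.704 and 0.483 CPM), had ratios below 0. The germ cell markers summed to 4079 and 3221 CPM, none of the 12 passed 2-fold, and 11 had a ratio below 0. Sertoli markers summed to 8.68 and 25.8 CPM, with 1 of the 4 tested called higher and 2 at a ratio below 0. Myeloid markers summed to 22.8 and 44.2 CPM, with 1 of 10 called higher, where 10.7% of all genes were. None of the 3 tested endothelial markers was called. Whether RNA of fibroblasts or of these other cell types accounts for the levels of the 9 genes was not tested.

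Relatives of the members, taken from gene lists, were counted in the same comparison, where 10.7% of all genes were called higher. All 6 of the other S100 genes that passed the filter were higher (12 listed), among them S100a11 at 34.0 and 366 CPM and S100a10, the partner of annexin A2, at 23.2 and 205 CPM. Of the other annexins 5 of 7 were higher, led by Anxa5, which binds phosphatidylserine, at 13.6 and 524 CPM, while Anxa7 (87.3 and 92.2 CPM) and Anxa11 (60.1 and 62.1 CPM) were not. Galectins were higher in 4 of 6, with Lgals3 at 4.22 and 99.5 CPM. Of the genes of caveolae 5 of 6 were higher; Ehd2, which holds caveolae at the membrane, was at 0.704 and 109 CPM (3 and 453 counts, a ratio of 155 with an interval of 52.8 to 756), and Cavin1, listed as Ptrf, at 291 and 615 CPM.

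Of the other intermediate filament genes 2 of the 10 tested were higher, lamin A/C (Lmna), at 54.2 and 390.2 CPM, and desmin (Des), at 0.939 and 3.38 CPM from 4 and 14 counts. That count stood against 10.7% of all genes, and the list's median was −0.19. Nestin (Nes), another filament gene, had 37.8 and 66.9 CPM, and the neurofilament gene Nefm 126 and 87.6 CPM. Among partners of fibronectin and hyaluronan 6 of 10 were higher, against the same 10.7%: the fibronectin receptor subunits Itga5 (20.9 and 342 CPM) and Itgb1 (222 and 1003 CPM), Itgav, the crosslinking enzyme Tgm2, Msn, which ties CD44 to actin, and Spp1, a ligand of CD44 and integrins, at 59.6 and 1773 CPM. The 3 hyaluronan synthase genes were under the filter.

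**Figure D2:**
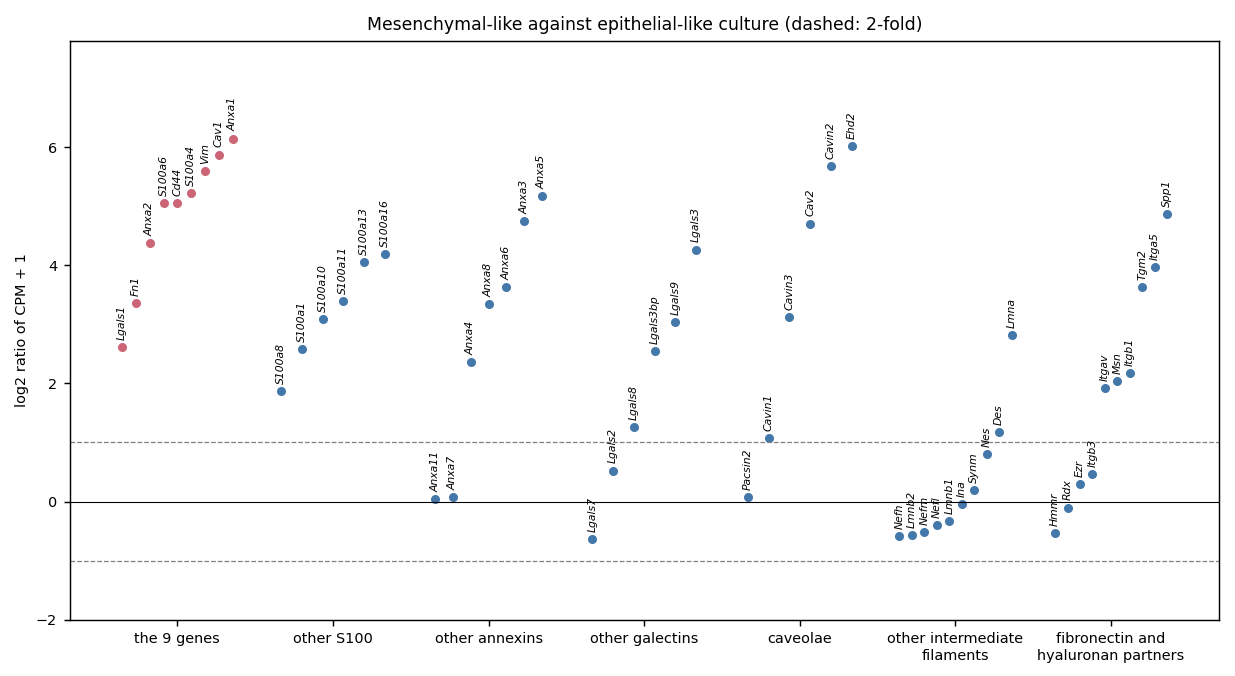
Log2 ratio of CPM + 1, mesenchymal-like over epithelial-like, for the 9 genes (red) and for the tested genes of 6 related lists (blue), each list sorted by its ratio; dashed lines mark 2-fold. The 9 genes lie between 2.62 and 6.14, and the other intermediate filament genes between −0.58 and 2.82.

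The GFP fractions were grown at the same Matrigel density as the mesenchymal-like culture, and each of the 9 genes was lower in all of them than in that culture. All 9 were at least 2-fold higher in the mesenchymal-like library than in each fraction, with median log2 ratios of 6.15, 6.91 and 5.97 against GFP-low, GFP-mid and GFP-high; 12.4%, 10.3% and 11.2% of all genes were called higher. These ratios share the mesenchymal-like library, and the labels do not say whether the mesenchymal-like cells were sorted before RNA extraction. Sorting, the experiment and any batch cannot be told apart here. The ratio to GFP-high cells ran from 8.82 for Fn1 (8.43 to 9.24) to 141 for Cav1 (94.7 to 221). Fibroblast markers summed to 59.3, 89.2 and 159 CPM in the fractions, against 4362 CPM. Scaling moved the background here. In deposited TPM the median ratio of all genes was −0.20, −0.27 and −0.35, against −0.03, −0.04 and −0.04 in CPM, and the share of called genes that were higher was 56.3%, 46.8% and 36.2% in place of 69.0%, 62.6% and 59.5%, while the 9 genes were called higher on both scales.

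**Figure D3:**
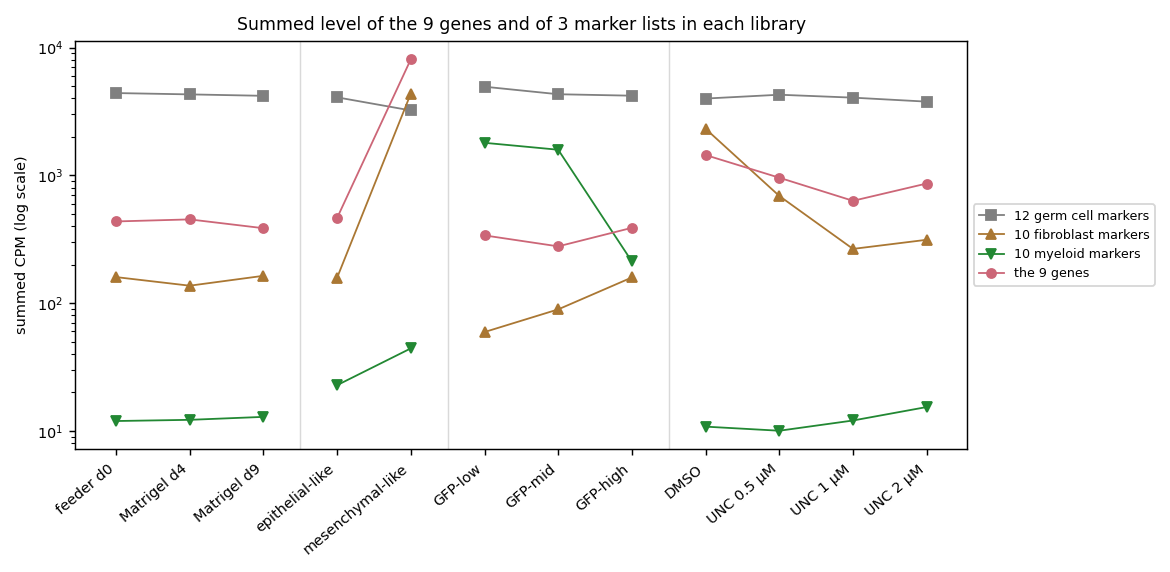
Summed CPM (log axis) of the 9 genes and of the fibroblast, myeloid and germ cell marker lists in each library, with lines joining the libraries of an experiment. The 9 genes sum to 8097 CPM in the mesenchymal-like culture and to 278 to 388 CPM in the sorted fractions, and the germ cell markers stay between 3221 and 4940 CPM.

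Within the sort, Pou5f1 itself was at 83.9, 176 and 367 CPM from GFP-low to GFP-high, the order of the labels. In CPM, none of the 9 genes followed that order in either direction, and 8 were lowest in GFP-mid cells. In deposited TPM, S100a6 followed it, at 27.3, 27.5 and 47.3 TPM, and 7 were lowest in GFP-mid cells; its CPM ratio of GFP-mid to GFP-low was within counting error. Anxa1 and Cav1 were the members called higher in GFP-high than in GFP-low cells, where 6.94% of all genes were, and the median of the 9 was 0.13 against −0.02 for all genes (0.28 against 0.11 in deposited TPM). Anxa1 was 3.86 times higher (2.83 to 5.35) and Cav1 3.39 times (1.35 to 10.1). Against GFP-mid cells, where 1.32% of all genes were called higher, the same 2 genes were called, at 5.46 times (4.06 to 7.45) and 8.04 times (2.76 to 31.9). Between GFP-mid and GFP-low cells 1 member was called, S100a4, which was lower in GFP-mid (ratio 0.243, 0.105 to 0.521), where 0.685% of all genes were called lower. The comparisons share their libraries pairwise. Fibroblast markers were higher in GFP-high cells too. Of the 9 tested, 5 were called higher than in GFP-low cells (median 1.19) and 5 higher than in GFP-mid cells (median 1.01). Of the 12 germ cell markers, 1 was called higher and 3 lower in GFP-high than in GFP-low cells, where 6.94% and 2.59% of all genes were. In that comparison 1 of 4 Sertoli and 1 of 3 Leydig and peritubular markers were called higher and none lower. Of 3 endothelial markers 1 was higher and 1 lower. The part of these marker lists in the Anxa1 and Cav1 values was not tested.

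The calls for Cav1 and S100a4 rested on few reads. Cav1 had a log2 ratio of 1.02 for GFP-high over GFP-low cells, which was 0.96 in deposited TPM and 0.39 with 5 in place of 1 added to the CPM, and for GFP-high over GFP-mid 1.43 became 0.51. S100a4 went from −1.25 to −0.51 between GFP-mid and GFP-low cells with 5 added. Anxa1, by contrast, was called higher in GFP-high cells under every alternative run.

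Among the members that were not called, Cd44 was lowest in GFP-high cells, at a ratio of 0.534 to GFP-mid (0.372 to 0.755), and Fn1, S100a6 and Anxa2 were highest there. Of the other annexins 1 of 7 was called lower in GFP-high than in GFP-low cells, Anxa5, at 4.56 against 20.2 CPM, and the list's median was 0.10. Of the other S100 genes 2 of 6 were lower, and 4 of 6 other galectins were at least 2-fold lower, with Lgals3 at 5.10 against 17.2 CPM; 2.59% of all genes were called lower. Of the 6 caveolae genes 1 was lower, Cavin1, at 78.2 against 197 CPM. Another 2, both from few reads, were called higher, as were 6.94% of all genes: Cavin2 at 2.97 against 0.376 CPM (28 and 3 counts) and Cavin3 at 1.27 against 0.125 CPM (12 and 1 counts). Myeloid markers moved with these fractions: all 10 were above 3 counts in each, their sum was 1797, 1586 and 212 CPM from GFP-low to GFP-high, and all 10 were at least 2-fold lower in GFP-high than in GFP-low cells. Their part in the levels of the S100, annexin and galectin genes was not tested.

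The inhibitor series asked which transcripts differ after G9a inhibition. All 9 genes were lowest at 1 µM UNC0638, and 8 were highest with DMSO, S100a4 being highest at 0.5 µM. At 0.5 µM, 3 members were called lower than with DMSO (Vim, Cd44 and Cav1), where 2.13% of all genes were, and the median log2 ratio was −0.68. At 1 µM the count was 7, all but Anxa2 and Lgals1, against 4.12% of all genes, with a median of −1.37. At 2 µM it was 1, Fn1, against 3.59%, with a median of −0.66. The medians of all genes were between −0.02 and 0 at the 3 doses, and the 3 comparisons share the DMSO library.

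At 1 µM Cav1 was at 0.265 of its DMSO level (0.186 to 0.370), Cd44 at 0.289 (0.201 to 0.410), Vim at 0.318 (0.274 to 0.369) and Anxa1 at 0.347 (0.292 to 0.411). S100a6 was at 0.384 (0.337 to 0.436), Fn1 at 0.416 (0.390 to 0.443) and S100a4 at 0.456 (0.363 to 0.570). Lgals1 and Anxa2 were at 0.582 (0.534 to 0.633) and 0.604 (0.524 to 0.695). With 5 added to the CPM, S100a4 at 1 µM had a log2 ratio of −0.98 and Cd44 and Cav1 at 0.5 µM −0.90 and −0.92, each just short of the threshold.

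The step from 1 to 2 µM was compared after the values had been seen. All 9 genes were higher at 2 than at 1 µM, 8 of them with a counting interval above 1, and the median log2 ratio was 0.93 against −0.01 for all genes. Cd44 (2.15 times, 1.46 to 3.20) and S100a4 (2.07 times, 1.64 to 2.61) passed the threshold, as 2.46% of all genes did upwards. Cav1, at 2.11 times (1.44 to 3.12), was just short of it on the log2(CPM + 1) scale, at 0.99. Fn1 was the exception at 1.06 times (0.981 to 1.15). Without replicates it cannot be told whether this non-monotonic order belongs to the doses or to the 2 libraries.

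Fibroblast markers were lower with the inhibitor as well. The fibroblast list summed to 2314 CPM with DMSO and to 690, 265 and 313 CPM at 0.5, 1 and 2 µM. At 1 µM all 9 tested fibroblast genes were called lower, with a median log2 ratio of −2.99. At 0.5 µM 7 of the 9 were called lower, and at 2 µM 8 of the 9, where the highest log2 ratio was 0.03. The shares of all genes called lower were 2.13%, 4.12% and 3.59% at 0.5, 1 and 2 µM. Col1a1 was at 0.126 of its DMSO level at 1 µM (0.117 to 0.136) and Col3a1 at 0.0338 (0.0264 to 0.0427), lower ratios than that of any of the 9 genes. From 1 to 2 µM, 7 of 9 fibroblast genes were higher, 3 with an interval above 1, with a median of 0.30. Thy1 was 2.73 times higher (1.32 to 5.97), Dcn 2.61 times (1.94 to 3.53) and Col1a1 1.09 times (0.980 to 1.21). Germ cell markers summed to 3990, 4276, 4056 and 3775 CPM, and none was called at any dose. The Leydig and peritubular markers summed to 22.2, 24.1, 10.6 and 20.6 CPM with DMSO and rising dose, so they too were lowest at 1 µM. Of that list Acta2 was at 16.4 CPM with DMSO and 4.71 CPM at 1 µM, and Star at 3.66 CPM at 1 µM and 10.1 CPM at 2 µM. The part of these markers and of the fibroblast markers in the levels of the 9 genes was not tested.

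**Figure D4:**
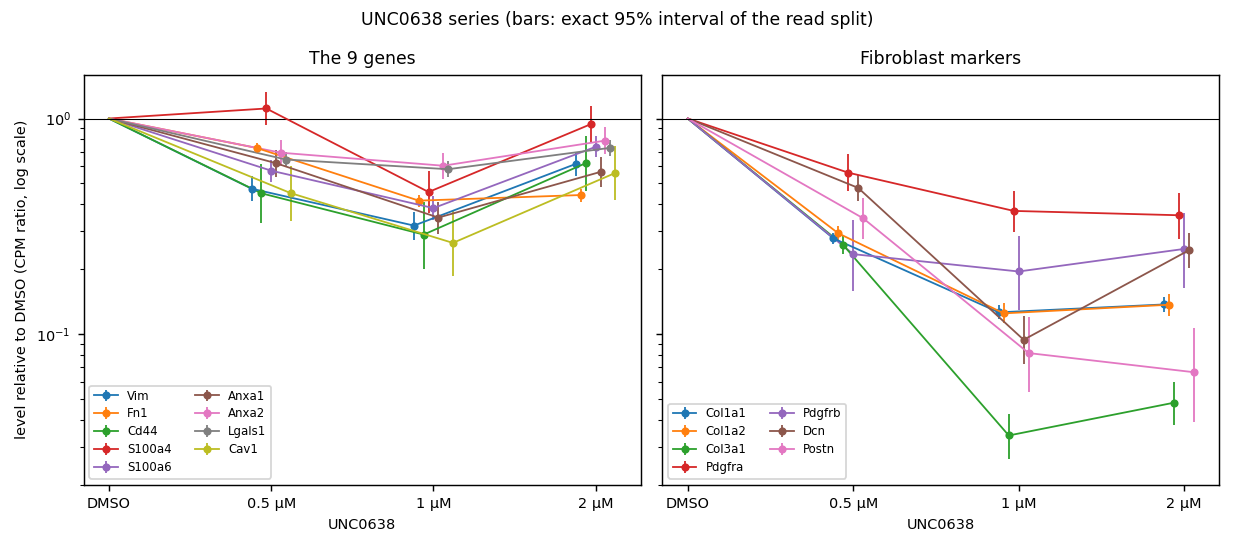
Level relative to DMSO (CPM ratio, log axis) at 0.5, 1 and 2 µM UNC0638. The 9 genes are on the left, and 7 of the 9 tested fibroblast markers on the right, without Thy1 and Lum. Bars are exact 95% intervals of the read split. All 9 genes are lowest at 1 µM, between 0.265 and 0.604 of the DMSO level, and Col3a1 reaches 0.0338.

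The relatives were counted at each dose in the same way. At 1 µM, where 4.12% of all genes were called lower, 3 of 7 annexins were lower, with Anxa5 at 25.7 against 83.0 CPM, and 3 of 6 galectins, 3 of 6 caveolae genes and 1 of 6 S100 genes were lower. None of the 10 intermediate filament genes was lower and 1, Ina, was higher (47.1 against 21.8 CPM), as were 2.59% of all genes. Of the partners of fibronectin and hyaluronan 4 of 10 were lower: Itga5, Itgav, Tgm2 and Spp1. The fibronectin receptor gene Itga5 went from 48.9 CPM in the DMSO library to 20.2, 16.4 and 15.8 CPM with rising dose, and Spp1 at 1188, 804, 399 and 572 CPM. At 0.5 µM, where 2.13% of all genes were called lower and 1.58% higher, 1 of 7 annexins (Anxa3), 1 of 10 fibronectin and hyaluronan partners (Itga5) and none of the S100, galectin and caveolae genes were lower, and Ina was higher. At 2 µM, where 3.59% were called lower and 3.42% higher, none of the annexins was lower, against 2 of 6 galectins, 2 of 6 caveolae genes, 1 of 6 S100 genes (S100a16) and 2 of 10 partners (Itga5 and Spp1). Called higher there were S100a8, at 1.83 against 0.399 CPM from 8 and 2 counts, and the neurofilament gene Nefh, at 38.3 against 18.2 CPM.

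The feeder-removal series asked what differs once GSCs leave the feeders. No member passed 2-fold in any of its comparisons, where 2.28% (day 4 against day 0), 2.6% (day 9 against day 0) and 1.74% (day 9 against day 4) of all genes did; each library enters 2 of these comparisons. The median of the 9 was 0.11 at day 4 and −0.37 at day 9 relative to day 0, against 0.03 and 0.02 for all genes. At day 9, 7 of the 9 had a ratio below 0. S100a6 was at 0.644 of its day 0 level (0.542 to 0.765) and Lgals1 at 0.664 (0.606 to 0.727), and both were lower at day 4 already. Anxa1 was at 0.736 (0.630 to 0.860). Fn1 was the one member with its highest level at day 9, at 1.21 times day 0 (1.12 to 1.30). In deposited TPM the median of all genes at day 9 moved to 0.13, and that of the 9 to −0.25. The fibroblast markers summed to 160, 137 and 163 CPM at days 0, 4 and 9. The Leydig and peritubular markers summed to 47.6, 62.0 and 13.9 CPM. Acta2 made up most of that sum at days 0 and 4 and was called lower at day 9, at 6.92 CPM against 44.98 CPM at day 0, while Star was called higher (5.13 against 0.907 CPM, from 63 and 7 counts). The Sertoli markers summed to 26.6, 21.7 and 19.9 CPM, and all 4 tested had a ratio below 0 at day 9 relative to day 0, none of them called. The part of these markers in the values of the 9 genes was not tested.

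**Figure D5:**
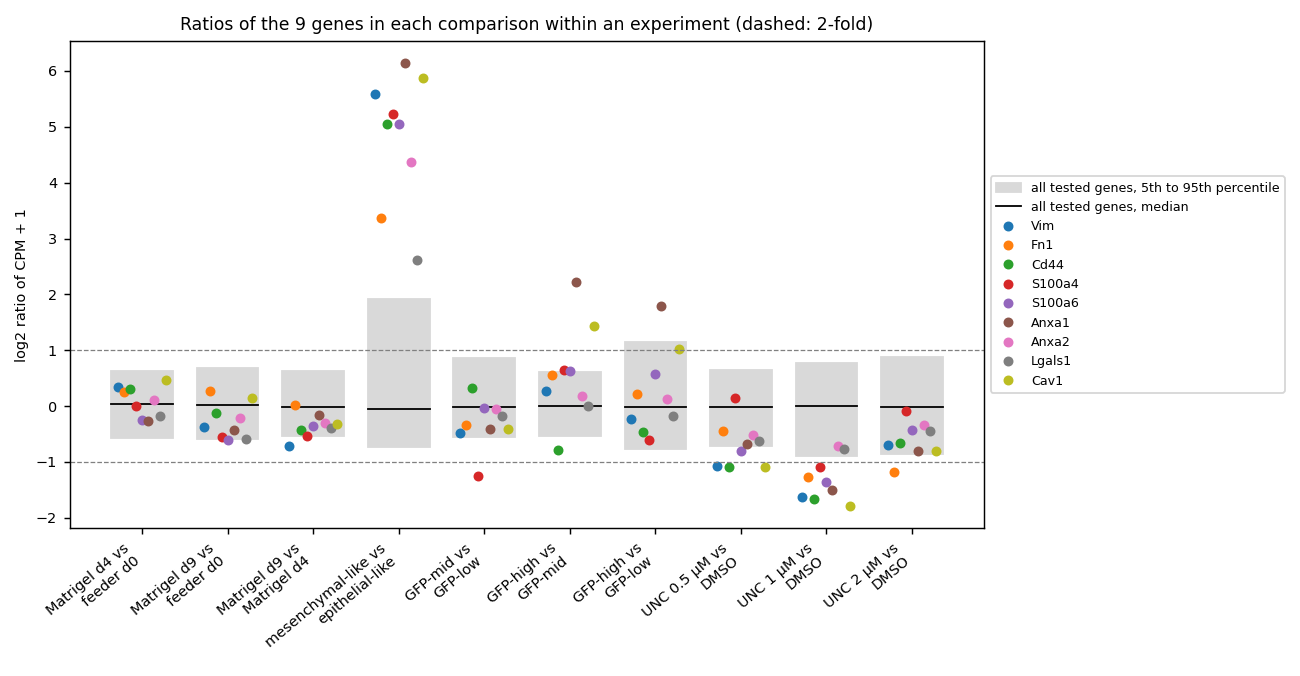
Log2 ratio of CPM + 1 of each of the 9 genes (points) in the 10 comparisons within an experiment; grey bars span the 5th to 95th percentile of the 14301 tested genes, black lines their median, and dashed lines mark 2-fold. All 9 points lie above the bar in the density comparison, and all 9 lie below 0 at 1 and 2 µM UNC0638.

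Both the day 0 and the DMSO library came from cells on MEF without inhibitor, and they differed. Of the 9 genes 7 were called higher with DMSO, all but Cd44 and Anxa2, where 12.2% of all genes were, and the median was 1.73 against 0.01. S100a4 was 17.2 times higher (10.97 to 28.2), Vim 7.59 times (6.30 to 9.19) and S100a6 4.57 times (3.97 to 5.27). Cd44 had a ratio of 1.99 (1.53 to 2.60) and Anxa2 of 1.497 (1.32 to 1.70). All 9 tested fibroblast markers were called higher with DMSO too, and the list summed to 2314 against 160 CPM. Of the 12 germ cell markers 3 were called higher and none lower. Of 3 Leydig and peritubular markers 1 was higher and 1 lower. Called lower were 1 of 3 endothelial and 1 of 10 myeloid markers, where 7.22% of all genes were. The solvent, the experiment and the amount of fibroblast RNA cannot be told apart. The summed CPM of the 9 genes was 0.623 of the fibroblast sum with DMSO, 1.86 times it in the mesenchymal-like library and 2.36 to 5.71 times it in the feeder-removal, epithelial-like and sorted libraries. At 0.5, 1 and 2 µM UNC0638 it was 1.39, 2.38 and 2.76 times the fibroblast sum. This ratio of sums was computed after the levels had been seen.

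For each member, the 2 genes outside the 9 with the smallest root-mean-square difference of centred log2(CPM + 1) over the 12 libraries were listed as a description; all of them share the peak in the mesenchymal-like library. Nearest to Vim were Ahnak (0.46) and Kif1a (0.49), and among the members S100a6 (0.44) was nearer than any other gene tested. Fn1 was nearest to Fer1l3 (0.24) and Thsd7a (0.30), Cd44 to Ecm1 (0.35) and Loxl3 (0.43), and S100a6 to Serpinb2 (0.32) and Timp1 (0.37). Anxa1 and Cav1, 0.47 from each other, both had Csf1 as the nearest gene, at 0.41 each. Anxa2 and Lgals1 shared Tpm4, a tropomyosin of the cytoskeleton, at 0.27 and 0.25, and Lgals1 was closest to Lmna (0.23). S100a4 was nearest to Cck at 0.49 and Adamts2 at 0.80, with the member Vim between them at 0.76.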

How the data were processed

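RNA was sequenced from 12 libraries by a modified Smart-seq2 protocol, per the labels' protocols. The deposited tables hold expected counts (estimated counts per gene) and TPM values, per the file headers; RSEM, Trim Galore and mm10 are named in the submitters' processing notes, without versions or roles. The deposited FPKM columns were not used. The 4 ATAC-seq libraries in the labels were not analysed here.

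Expected counts were rounded and scaled to CPM with TMM factors (0.912 to 1.07, edgeR 4.0.16 in R 4.3.3). Of the genes, 8.52% to 10.7% had a count that was not exactly equal to its rounded value, and 0 of 108 member values did. No 2 libraries held identical values. The filter was a mean level of 1 CPM or more. The main measure was the log2 ratio of CPM + 1, which understates the change of low genes; folds and their 95% Clopper-Pearson intervals of the read split were computed without the pseudocount. Amplified reads are not independent molecules, so intervals cover counting error only. The detection limit was taken as 3 counts. Steps were tested on simulated data. The named genes are the 9 members, the genes of the related and marker lists, and the 2 genes outside the 9 most alike each member. Genes were located and promoters read in RefSeq tables of GRCm38.p6, the assembly that mm10 names. The members and lists were chosen with earlier results of these data known. Alternatives were DESeq2 1.42.0 size factors, deposited TPM, pseudocounts of 0.1 and 5, no filter and a filter at 10 CPM. Scripts ran in Python 3.11.15 with pandas 2.3.3, numpy 2.4.6, matplotlib 3.10.9 and scipy 1.17.1.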

Additional observations from a re-analysis of the deposited data

How the results depend on the processing

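Each group had 1 library, so replicate error is unknown and intervals describe sequencing depth alone. By their lowest count in any library, Cav1 (4) and S100a4 (10) were the smallest of the members. No paired analysis was possible because each RNA group had 1 library, and the ATAC-seq groups that share replicate numbers were not analysed here. The number of members called was the same under DESeq2 size factors, without a filter and with a filter at 10 CPM in all 14 comparisons. It moved by more than 1.5 times in the sorted fractions and at 0.5 µM UNC0638. Between GFP-mid and GFP-low cells it was 1, and 2 with a pseudocount of 0.1 and 0 with 5. Between GFP-high and GFP-mid cells it was 2, and 1 with a pseudocount of 5, and 3 with deposited TPM or a pseudocount of 0.1, which add S100a4. Between GFP-high and GFP-low cells it was 2, and 1 with deposited TPM or with a pseudocount of 5. At 0.5 µM it was 3, and 1 with a pseudocount of 5; the larger pseudocount shrinks ratios of low genes by construction, and the cause under TPM was not tested. Of 504 alternative values for 126 member ratios, 10 changed a call and 2 changed sign: S100a4 at day 4 against day 0 (−0.01, and 0.03 in TPM) and S100a6 in GFP-mid against GFP-low cells (−0.04, and 0.01 in TPM), neither of them called. Of the 126 ratios, 18 shifted beyond their counting interval in deposited TPM and 23 with a pseudocount of 5.

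The number of all genes called depended on the pseudocount. In the order of the plot of ratios by comparison it was 326, 372, 249, 1781, 582, 407, 1364, 531, 960 and 1003. With a pseudocount of 5 it was 17, 30, 17, 1004, 182, 98, 521, 76, 302 and 228. With a filter at 10 CPM, which tests 9598 genes, it was 29, 84, 54, 680, 280, 100, 622, 96, 303 and 285. With a pseudocount of 0.1 it moved by more than 1.5 times in 9 comparisons, to 1031, 1025, 858, 1267, 928, 2150, 1169, 1656 and 1751, the density comparison being the one within an experiment that did not. For DMSO against day 0 it was 2776, with 1299 under a pseudocount of 5 and 1507 under the stricter filter. For the mesenchymal-like library against GFP-low, GFP-mid and GFP-high cells it was 2579, 2364 and 2684, with 1457, 1246 and 1410 under a pseudocount of 5 and 1184, 998 and 1210 under the filter.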
